A study of Mus musculus with 112 samples.

Results

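The 46 genes described here encode the machinery that copies DNA in S phase and the enzymes, cyclins and chromatin factors that work beside it. They were taken by symbol from a table of 32285 genes, with no threshold on a measured value. All 46 were found, and all 46 passed the filter on low counts in the main fit of every comparison below. By role they are 7 MCM genes (Mcm2 to Mcm7 of the helicase ring and the firing factor Mcm10), 4 origin licensing genes, 5 genes of CDC45 and the GINS complex, 6 genes of the sliding clamp and its loader, 6 polymerase and primase genes, 5 genes for flap removal, ligation and single-strand binding, 5 nucleotide supply genes, 3 genes of G1/S control and 5 genes of chromatin copying.

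DNA replication starts at origins that are licensed in G1, when ORC, CDC6 and CDT1 load the ring-shaped MCM helicase onto DNA. At S phase entry, E2F factors drive transcription of many of these genes, and CDC45 and GINS join MCM to form the active helicase. Polymerases alpha, delta and epsilon then copy the strands with the PCNA clamp, while ribonucleotide reductase, thymidylate synthase and thymidine kinase supply nucleotides. In the crypts of the small intestine, Lgr5-positive stem cells and the transit-amplifying progenitors above them divide rapidly, whereas mature Paneth cells, which secrete antimicrobial peptides at the crypt base, are regarded as postmitotic.

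Libraries made with SC3-seq, which reads the 3' ends of polyadenylated RNA, from 1 ng of RNA were compared between young mice of 2 to 3 months and aged mice of 23 to 27 months. Every group was C57BL/6 and carried Lgr5-eGFP-IRES-CreERT2, in which the Lgr5 promoter drives the GFP used for sorting, so that Lgr5 itself was part of the gate. From crypts of the proximal part of the small intestine, intestinal stem cells (ISCs) were sorted as GFP high, Epcam high and CD24 low, progenitors as GFP medium to low, and Paneth cells, which lack GFP, by high CD24 and high side scatter, always without 7-AAD. With technical Paneth libraries summed per animal there were 11 young and 12 aged ISC samples, 10 young and 10 aged progenitor samples, and 12 young and 12 aged Paneth samples, with 5 to 7 animals of each sex in every group, from 36 animal names.

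Samples held 2.18 to 5.59 M counts in ISCs, 2.48 to 7.57 M in progenitors and 2.82 to 11.8 M in Paneth cells. Mitochondrially encoded genes took 61.6 ± 6.74% of the counts in young and 51.6 ± 10.9% in aged Paneth samples (mean ± SD, n = 12 each), which left 1.09 to 5.68 M counts of nuclear genes. The 46 genes together had 11236 to 30944 counts per ISC sample, 9495 to 30415 per progenitor sample and 3231 to 15688 per Paneth sample. Lgr5 lay between 76.0 and 126.9 CPM in young ISCs and between 0.686 and 11.6 CPM in young progenitors. As Lgr5 was part of the gate, its level cannot test the sort. Lyz1, the lysozyme of Paneth granules, lay between 33120 and 92250 CPM in young Paneth samples. No list of progenitor markers was used. Marker RNA of other cell types was also found, which in bulk samples does not show the cells it came from. Summed goblet markers reached 8971 to 28260 CPM in young progenitors. Summed ISC markers reached 1827 to 5496 CPM in young Paneth samples, against 7342 to 12680 CPM in young ISCs. CPM here are counts scaled to a common library size (TMM-normalised CPM), on 1 scale for all 67 samples.

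The summed level of the 46 genes was highest in ISCs, lower in progenitors and lowest in Paneth cells. Young ISC samples ranged from 3224 to 3895 CPM with a median of 3676, young progenitors from 2805 to 3472 with a median of 3112, and young Paneth samples from 1646 to 2794 with a median of 2328. Every young Paneth sample therefore lay below every young ISC and every young progenitor sample, while ISCs and progenitors overlapped. Aged samples kept this order, at medians of 3340 CPM for ISCs, 2773 for progenitors and 2327 for Paneth cells, and every aged Paneth sample lay below every aged ISC sample, at 1397 to 2782 against 3074 to 3706 CPM. In bulk samples, fewer cells of a type, or fewer in S phase, and less RNA per cell cannot be told apart.

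**Figure D1:**
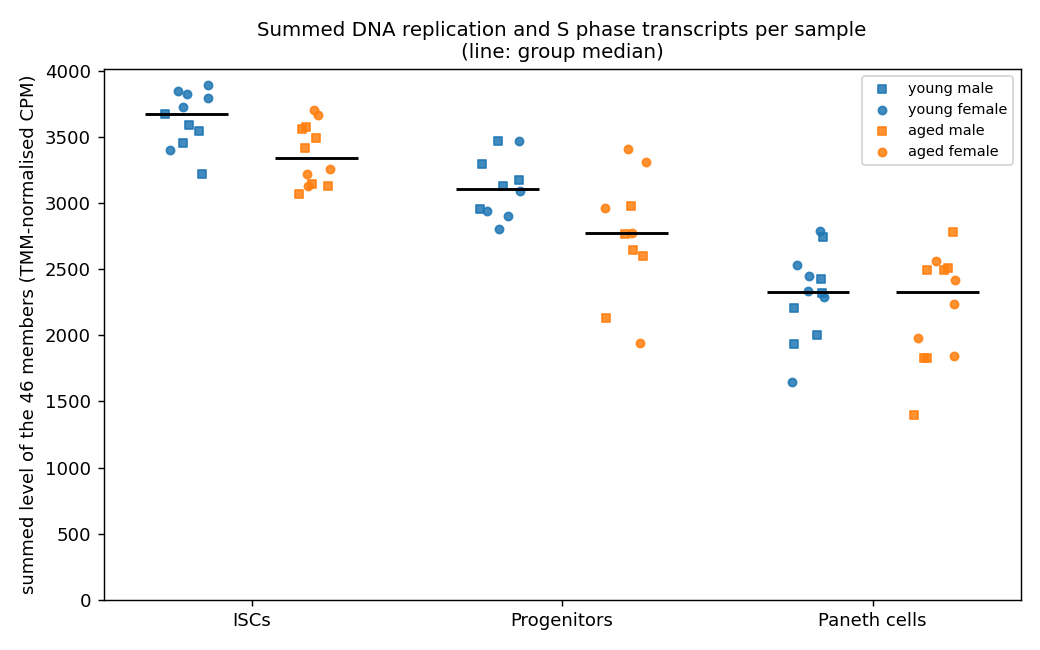
Summed level of the 46 genes in CPM (vertical axis) for each sample, by cell type, age (blue young, orange aged) and sex (squares males, circles females), 1 point per animal, with a line at the group median. Young Paneth samples, at 1646 to 2794 CPM, lie below all young ISC samples, at 3224 to 3895 CPM, and aged progenitors reach down to 1944 CPM.

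Between young Paneth cells and young ISCs, 28 of the 46 genes were lower and 1 was higher in Paneth cells in edgeR's quasi-likelihood test (adjusted p below 0.05 over all genes tested). Over all 13287 genes tested, 12.4% were lower and 16.8% higher in Paneth cells (29.2% in all). The estimate was below 0 for 43 of the 46, with a median log2 difference of -0.68 against -0.014 over all genes. The MCM genes and the nucleotide supply genes were lower throughout, and most members of the chromatin, G1/S, polymerase and GINS groups did not pass.

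All 7 MCM genes were lower in young Paneth cells. Mcm6, a subunit of the helicase ring, measured 200.7, 243.7 and 285.2 CPM (lowest, median and highest) in young ISCs and 66.5, 115.5 and 178.2 CPM in young Paneth cells. The groups did not overlap, and the log2 difference was -1.04 ± 0.13 (SE; edgeR adjusted p = 2.66e-10). Mcm2 went from 122.0, 156.5 and 195.4 CPM in young ISCs to 60.4, 86.9 and 120.3 CPM in young Paneth cells (log2 difference -0.82 ± 0.14, edgeR adjusted p = 1.88e-06). Mcm5 went from 206.5, 252.7 and 296.4 CPM to 74.4, 151.3 and 197.5 CPM (-0.78 ± 0.14, edgeR adjusted p = 6.44e-06). Both ring subunits were separated in every sample, Mcm2 by the smaller gap. Mcm3 (-0.87), Mcm4 (-1.01), Mcm7 (-0.58) and the firing factor Mcm10 (-0.62) were lower as well.

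Among the licensing genes, Cdt1, Orc6 and Cdc6 were lower and Orc1 did not pass. Cdt1, which brings MCM to the origin, measured 92.2, 115.5 and 156.0 CPM in young ISCs and 19.5, 50.9 and 85.7 CPM in young Paneth cells, again without overlap (log2 difference -1.20 ± 0.17, edgeR adjusted p = 1.36e-08). Cdc6, the loader that acts with CDT1, was lower with a wider error (-1.07 ± 0.43, edgeR adjusted p = 0.0491, and 0.2 with the animal as a block), at medians of 16.3 CPM in ISCs and 7.49 CPM in Paneth cells, with 1 young Paneth sample at 0 counts. Orc1, an ATPase subunit of the origin recognition complex, had an estimate of -0.43 ± 0.44.

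Of CDC45 and GINS, Gins2 (-0.36) and Gins4 (-0.63) were the members lower in young Paneth cells, and neither passed with the animal as a block (edgeR adjusted p = 0.124 and 0.0732). Cdc45, which completes the helicase, measured 34.5, 54.7 and 70.8 CPM in young ISCs and 15.2, 38.8 and 61.4 CPM in young Paneth cells. These ranges overlapped widely, and the difference of -0.43 ± 0.20 did not pass (edgeR adjusted p = 0.0962).

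The clamp and its loader went in both directions. Pcna, the clamp that holds polymerases on DNA, measured 98.9, 165.9 and 242.9 CPM in young ISCs and 34.1, 70.2 and 134.4 CPM in young Paneth cells. Its ranges overlapped and the mean fell by 1.13 ± 0.18 on the log2 scale (edgeR adjusted p = 9.06e-07). Rfc1, the large subunit of the clamp loader (chr5:65261850-65335670, minus strand, GRCm38), was the 1 member higher in Paneth cells, although not with unscaled totals. It measured 29.9, 37.7 and 48.2 CPM in young ISCs and 39.7, 64.2 and 89.7 CPM in young Paneth cells, with overlap (log2 difference 0.75 ± 0.18, edgeR adjusted p = 0.000546). The small loader subunits Rfc3 (-0.79) and Rfc4 (-0.65) were lower.

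All 5 nucleotide supply genes were lower in young Paneth cells. Rrm1, the large subunit of ribonucleotide reductase, measured 153.2, 192.5 and 254.7 CPM in young ISCs and 37.6, 84.7 and 132.3 CPM in young Paneth cells. No sample of one group reached the other (log2 difference -1.16 ± 0.15, edgeR adjusted p = 1.93e-09). Rrm2, the small subunit of the same enzyme, followed (-1.23 ± 0.26, edgeR adjusted p = 0.00015). Thymidine kinase Tk1 (-0.89), Dut, which removes dUTP (-0.72), and thymidylate synthase Tyms (-0.64) were lower too.

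Among the remaining groups, Fen1, the flap nuclease (-0.84 ± 0.20, edgeR adjusted p = 0.000578), Rpa1, the large subunit of the single-strand binding complex (-0.80 ± 0.16, edgeR adjusted p = 2.94e-05), and the ligase Lig1 (-0.55) were lower. Of the polymerase genes Pola2 (-0.78) and Prim1 (-0.56) were lower, and the polymerase epsilon catalytic subunit Pole had -0.61 ± 0.26 (edgeR adjusted p = 0.0717). Dnmt1, the maintenance DNA methyltransferase (-0.73), and its partner Uhrf1 (-0.82) were lower, while the histone chaperone genes Chaf1a (-0.16) and Chaf1b (-0.07) and the histone mRNA binder Slbp (0.10 ± 0.48) did not pass. Ccne2, cyclin E2, was lower (-1.49 ± 0.43, edgeR adjusted p = 0.00479), at medians of 7.79 and 2.48 CPM, whereas Ccne1 (-0.22 ± 0.38) and E2f1 (0.13 ± 0.35) did not pass. Many animals gave both cell types, and with the animal as a block Lig1, Pola2, Prim1 and Uhrf1 no longer passed (edgeR adjusted p = 0.0535, 0.0543, 0.0749 and 0.118), whereas Pola1, Rfc2 and Rpa2 did, for 24 members lower and 1 higher. Of all 13287 genes, 1485 were lower and 1584 higher in that fit. In all, 6 members lay lower in every young Paneth sample than in every young ISC sample: Mcm2, Mcm3, Mcm5, Mcm6, Cdt1 and Rrm1. Over all genes tested this held for 0.459%, and 2.45% were higher in every Paneth sample.

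**Figure D2:**
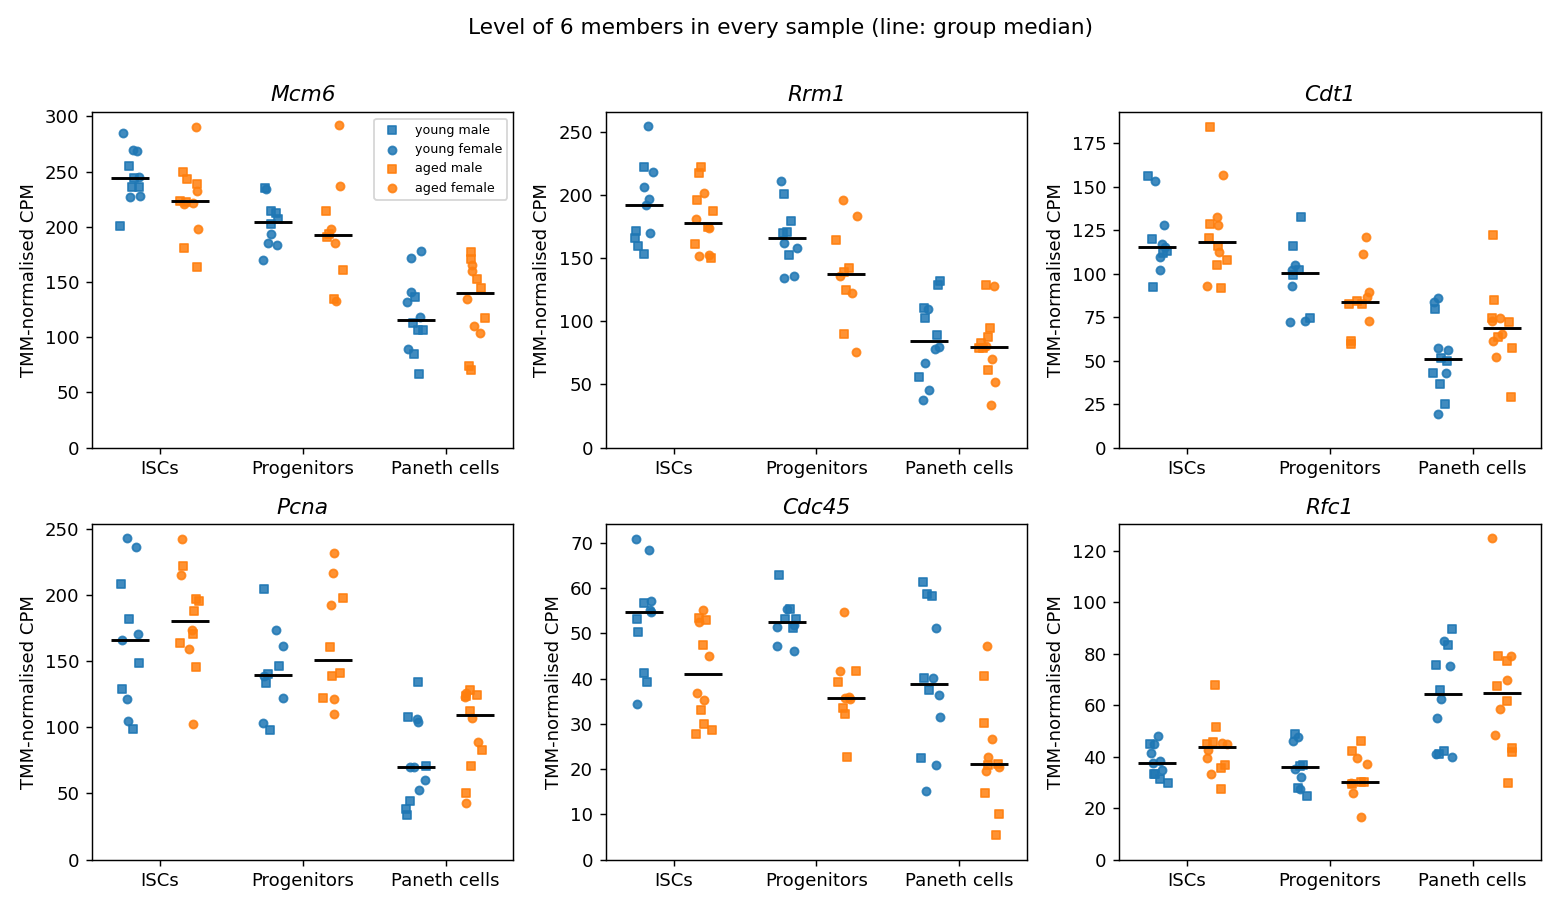
Levels of Mcm6, Rrm1, Cdt1, Pcna, Cdc45 and Rfc1 in CPM for each sample, by cell type, age (blue young, orange aged) and sex (squares males, circles females), 1 point per animal, with a line at the group median. Mcm6, Rrm1 and Cdt1 show a gap between young ISCs and young Paneth cells, Pcna and Cdc45 overlap, and Rfc1 lies higher in Paneth cells on this scale but lower with unscaled totals.

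These values depend on the scaling between cell types and on the libraries used. With library totals left unscaled the median of all genes moved to -1.85, and 10962 of all 13287 genes were called lower. All 46 members were lower in that setting, and 43 of the 46 lay below the median of all genes. Rfc1 turned to -1.07, which is 0.79 above that median. With the first technical Paneth library of each animal only, 16 members were lower and 1 higher, against 1376 lower and 1529 higher of 12654 genes tested.

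Marker RNA of other cell types was also more abundant in the Paneth gate. In young mice, 10 of 12 enterocyte, 9 of 9 goblet, 11 of 11 enteroendocrine, 8 of 8 tuft and 9 of 13 immune markers tested were higher in Paneth samples than in ISCs, against 16.8% of all genes. Their summed levels in young Paneth samples were 2184 to 4051, 4247 to 8500, 187.3 to 3871, 187.5 to 1691 and 41.0 to 247.4 CPM, against 875.7 to 1086, 438.8 to 1731, 3.12 to 38.3, 1.56 to 10.9 and 2.02 to 14.3 CPM in young ISCs, where Gnat3, Il25, Rgs13, Ptprc and Cd3e were at 0. Whether other cells were present, and their part in the result, was not tested.

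The 4 members with the smallest p in this comparison were Mcm6, Rrm1, Cdt1 and Pcna, and their promoters are shown because the genes were lower together. Each line holds 250 bases before and 50 after the annotated start (RefSeq, GRCm38.p6), 5′ to 3′ on the strand of the gene. Capitals mark matches on either strand to E2F-type letters (TTTCCCGC, TTTCGCGC, TTTGCCGC or TTTGGCGC) or to CCAAT, the core of the NF-Y element. The windows are chr1:128359656-128359955 on the minus strand for Mcm6, chr7:102441445-102441744 on the plus strand for Rrm1, chr8:122567765-122568064 on the plus strand for Cdt1 and chr2:132253131-132253430 on the minus strand for Pcna.
Mcm6: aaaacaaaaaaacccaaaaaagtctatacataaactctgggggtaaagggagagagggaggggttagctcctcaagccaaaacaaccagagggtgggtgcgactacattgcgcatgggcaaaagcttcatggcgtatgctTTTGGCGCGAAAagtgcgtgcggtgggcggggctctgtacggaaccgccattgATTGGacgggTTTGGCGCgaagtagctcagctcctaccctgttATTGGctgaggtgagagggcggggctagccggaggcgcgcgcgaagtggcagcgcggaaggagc
Rrm1: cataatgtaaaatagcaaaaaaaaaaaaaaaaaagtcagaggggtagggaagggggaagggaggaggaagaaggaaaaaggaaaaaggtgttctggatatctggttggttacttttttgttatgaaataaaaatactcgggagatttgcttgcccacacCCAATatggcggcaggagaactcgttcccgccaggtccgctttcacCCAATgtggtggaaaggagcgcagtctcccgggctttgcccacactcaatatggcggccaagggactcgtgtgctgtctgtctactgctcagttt
Cdt1: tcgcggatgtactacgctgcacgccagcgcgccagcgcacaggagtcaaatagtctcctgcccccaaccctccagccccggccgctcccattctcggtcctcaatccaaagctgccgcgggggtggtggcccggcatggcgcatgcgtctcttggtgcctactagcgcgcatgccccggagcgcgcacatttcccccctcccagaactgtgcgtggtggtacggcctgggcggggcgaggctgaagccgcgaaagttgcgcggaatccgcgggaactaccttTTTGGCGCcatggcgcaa
Pcna: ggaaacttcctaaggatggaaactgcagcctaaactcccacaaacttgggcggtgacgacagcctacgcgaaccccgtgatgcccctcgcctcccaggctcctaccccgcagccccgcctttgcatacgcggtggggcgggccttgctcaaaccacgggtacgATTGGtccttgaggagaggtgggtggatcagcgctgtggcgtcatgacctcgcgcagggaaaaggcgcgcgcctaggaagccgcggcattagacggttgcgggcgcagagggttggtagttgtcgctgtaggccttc
Mcm6 holds 3 E2F-type matches, of which 2 on opposite strands overlap, and 2 CCAAT matches. Cdt1 has 1 E2F-type match, which lies after the start, and no CCAAT. Rrm1 has 2 and Pcna 1 CCAAT match and neither has an E2F-type match of these letters. A RefSeq window was at hand for 38 of the 46 genes. Some genes had more than 1 window, and a gene was counted where any window matched. Of these 38, 14 (36.8%) held at least 1 E2F-type match, against 2.61% of 27025 genes, and 24 (63.2%) held CCAAT, against 41.1%. TTTCGCGC stood in 8, TTTCCCGC and TTTGGCGC in 6 each and TTTGCCGC in 0 of the 38 genes, against 0.374%, 1.24%, 0.585% and 0.507% of all genes. Of the 14 genes with an E2F-type match, 10 were lower in young Paneth cells than in ISCs at a median of -0.77, and of the 24 without one 14 were lower at a median of -0.64. Of all genes 12.4% were lower there. Between aged and young progenitors the order of the medians was the reverse. Genes with a match stood at -0.20 with 0 lower and those without at -0.26 with 1 lower, against 0.262% of all genes. A match of letters is a description only.

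In aged mice the comparison of Paneth cells with ISCs gave 32 members lower and 1 higher, with 12.8% of all genes lower and 17.3% higher (30.1% in all). The median log2 difference was -0.70, against -0.016 over all genes. Rrm1 ranged from 149.9 to 222.1 CPM in aged ISCs and from 33.3 to 128.8 CPM in aged Paneth cells (log2 difference -1.17 ± 0.15, edgeR adjusted p = 1.3e-09). Prim2, the large primase subunit, measured 28.4, 44.3 and 67.1 CPM in aged ISCs and 4.02, 13.7 and 27.6 CPM in aged Paneth cells (-1.52 ± 0.24, edgeR adjusted p = 2.31e-07). Rrm1 and Prim2 were the members without overlap, against 0.414% of all genes lower and 2.15% higher in every Paneth sample. Mcm2 (medians of 157.1 CPM in aged ISCs and 84.2 CPM in aged Paneth cells, edgeR adjusted p = 8.09e-09), Mcm6 (-0.77), Mcm5 (-0.78), Dut (-0.83), Mcm4 (-1.14) and Cdt1 (-0.85) followed by p-value, and Rfc1 was again higher (0.63 ± 0.17, edgeR adjusted p = 0.0028; -0.96 with unscaled totals, 0.64 above the median of all genes there). The young and aged calls shared 25 members, which is 86.2% of the 29 young and 75.8% of the 33 aged calls. With the animal as a block Mcm10 and Orc6 no longer passed in aged mice (edgeR adjusted p = 0.0583 and 0.0524) and Rfc3 did.

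Some members passed at 1 age only. Cdc45 (-0.84 ± 0.20), Pole (-0.97 ± 0.26), Pola1 (-1.52 ± 0.47) and Prim2 passed in aged and not in young mice, and Ccne2, Gins2, Lig1 and Rfc3 in young and not in aged mice. A test of the difference itself passed for none of these.

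Against young progenitors, 16 members were lower and 2 higher in young Paneth cells, with 12% of all genes lower and 14.1% higher (26.1% in all). The median over the 46 was -0.46, against 0.0074 over all genes. The nucleotide supply group again was lower in all 5 members, and MCM genes in 5 of 7. Tk1 measured 139.1, 185.7 and 212.0 CPM in young progenitors and 31.1, 71.8 and 151.7 CPM in young Paneth cells, with overlap at the edge (log2 difference -1.18 ± 0.18, edgeR adjusted p = 3.04e-07). Rrm2 measured 37.4, 48.4 and 63.4 CPM in young progenitors and 4.28, 11.5 and 34.1 CPM in young Paneth cells (-1.62 ± 0.27, edgeR adjusted p = 1.78e-06). Rrm1 (-0.98) and Rrm2 were lower in every Paneth sample, against 1.29% of all genes lower and 1.51% higher in every Paneth sample.

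Rpa1 (-0.97), Mcm6 (-0.77), Cdt1 (-0.88), Pcna (-0.93) and Fen1 (-0.93) were also lower than in progenitors, as was Ccne2 (-1.98 ± 0.44, edgeR adjusted p = 0.000264). Higher were Rfc1 (0.80 ± 0.18, edgeR adjusted p = 0.000392) and Pold1, the catalytic subunit of polymerase delta (0.48 ± 0.16, edgeR adjusted p = 0.0158). With unscaled totals they stood at -0.88 and -1.27, which is 0.82 and 0.43 above the median of all genes there (-1.70). All 46 members were lower in that setting, as were 10393 of all 13287 genes. With the first technical Paneth library only, Pold1 had an adjusted p of 0.0563 in edgeR. By another set of size factors, 64.3% of all called genes were higher, against 54.0% here. Marker RNA of other cell types differed too: 13 of 14 ISC, 8 of 8 tuft, 10 of 13 immune, 5 of 11 enteroendocrine and 5 of 12 enterocyte markers were higher and 5 of 9 goblet markers lower in Paneth samples, against 14.1% of all genes higher and 12% lower. Summed ISC markers were 1827 to 5496 CPM in young Paneth samples against 1149 to 1971 CPM in young progenitors, tuft markers 187.5 to 1691 against 1.35 to 11.4 CPM, immune markers 41.0 to 247.4 against 3.90 to 10.1 CPM, and goblet markers 4247 to 8500 against 8971 to 28260 CPM. Their part in the result was not tested.

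**Figure D3:**
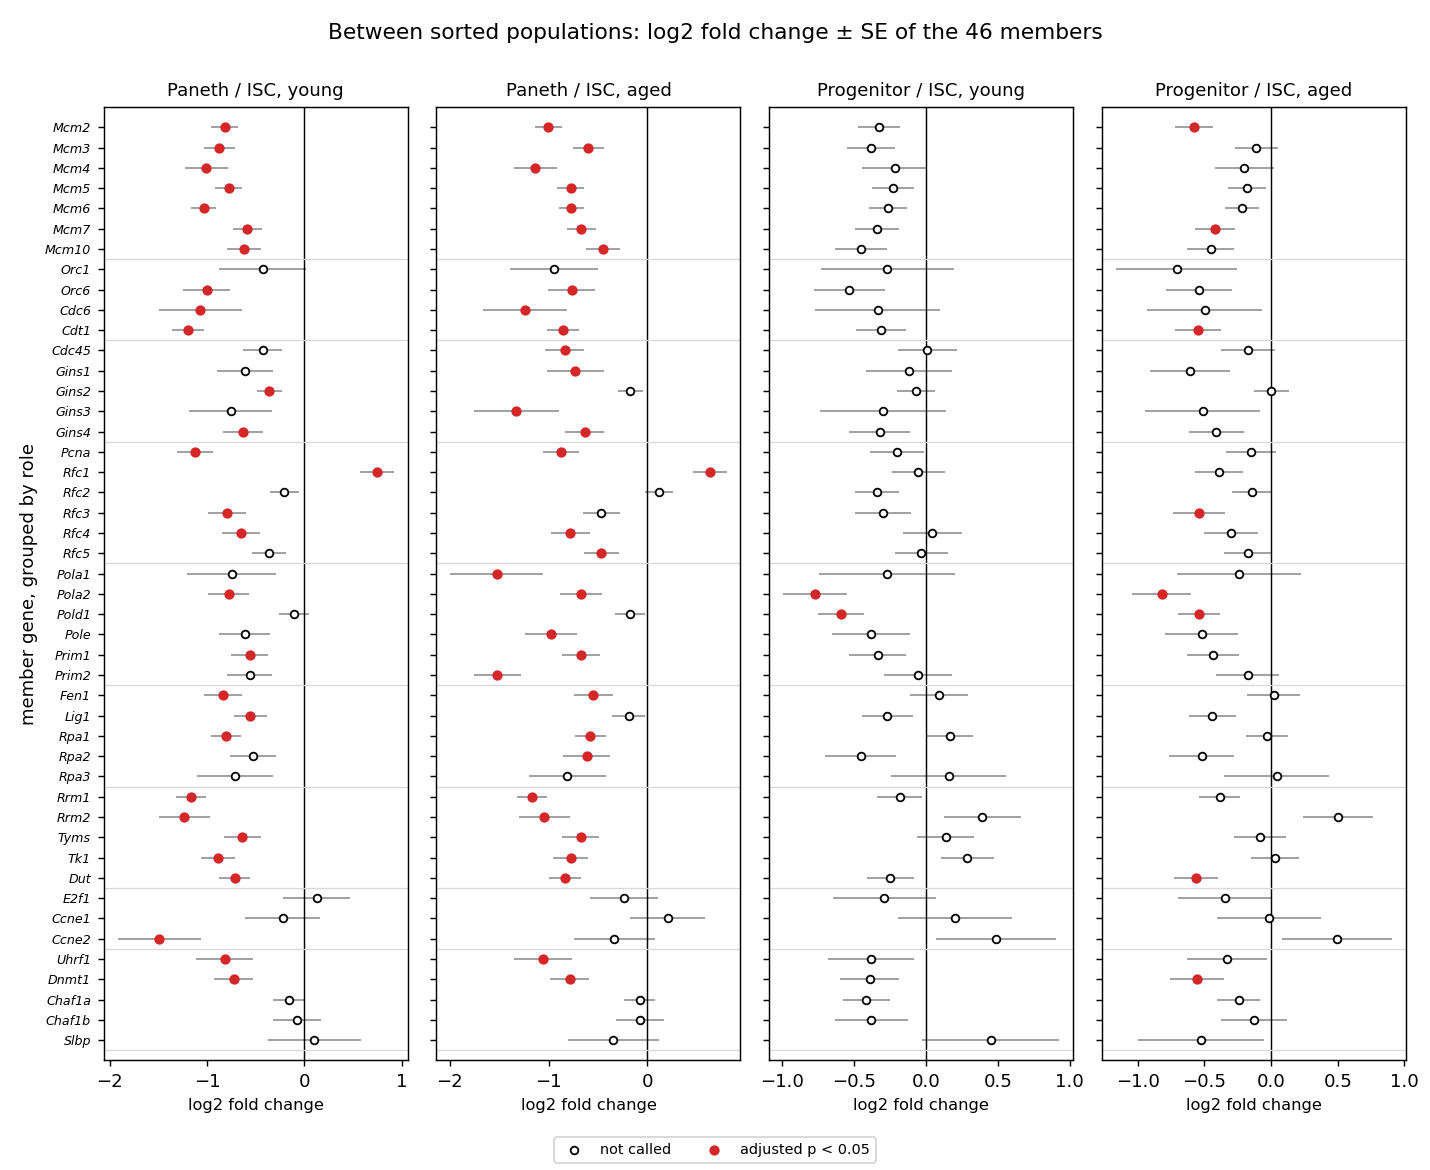
Log2 difference of each of the 46 genes for Paneth cells against ISCs and progenitors against ISCs, in young and in aged mice (horizontal axis, bars ± 1 SE, each panel with its own scale), grouped by role on the vertical axis, with filled red points past an adjusted p of 0.05. Differences of Paneth cells from ISCs lie mostly below 0, with Rfc1 at 0.75 in young and 0.63 in aged mice (-1.07 and -0.96 with unscaled totals), and those of progenitors from ISCs lie closer to 0.

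Young progenitors differed less from young ISCs. Only 2 members passed, Pold1 and Pola2, both polymerase genes and both lower in progenitors, against 9.47% of all genes lower and 13.3% higher (22.7% in all). The estimate was below 0 for 35 of the 46, with a median of -0.27 against -0.028 over all genes. Pold1 measured 127.6, 165.9 and 214.4 CPM in young ISCs and 86.6, 111.0 and 141.3 CPM in young progenitors, with a small overlap (log2 difference -0.59 ± 0.16, edgeR adjusted p = 0.00349). Pola2, the regulatory subunit of polymerase alpha, measured 31.2, 54.3 and 91.0 CPM in young ISCs and 24.3, 33.5 and 48.6 CPM in young progenitors (-0.77 ± 0.22, edgeR adjusted p = 0.00656). No member was separated in every sample, against 1.86% of all genes lower and 4.7% higher in every progenitor sample.

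All 7 MCM estimates were below 0, at a median of -0.33, with Mcm2 at -0.33 ± 0.14 and Mcm6 at -0.26 ± 0.13. Several genes of nucleotide supply had estimates above 0, among them Rrm2 (0.39 ± 0.27), Tk1 (0.29 ± 0.18) and Tyms (0.14 ± 0.20), and so did Ccne2 (0.49 ± 0.42). None of these passed. The count depended on the fit: with the animal as a block, since many animals gave several cell types, 3 members were lower (Pold1, Rfc2 and Rpa2) and Rrm2 higher, while Pola2 moved to -0.50 (edgeR adjusted p = 0.287). Of all 13287 genes, 523 were lower and 1163 higher with that block. With ISCs and progenitors fitted without the Paneth samples, 18 members were lower, against 2351 of 12680 genes tested. The count was 4 without ISC young female 1 or without progenitor young female 2. The counts of all genes in these fits are not given here, so whether only the members moved cannot be read from them. In young progenitors 9 of 9 goblet and 11 of 12 enterocyte markers were higher than in ISCs, against 13.3% of all genes. Their summed levels were 8971 to 28260 and 1685 to 2503 CPM, against 438.8 to 1731 and 875.7 to 1086 CPM in ISCs, and their part in the result was not tested.

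In aged mice 8 members were lower in progenitors than in ISCs, with 11% of all genes lower and 14.1% higher (25.1% in all), and 40 estimates lay below 0, at a median of -0.34 against -0.037 over all genes. Mcm2 measured 98.8, 157.1 and 198.3 CPM in aged ISCs and 73.1, 110.7 and 148.3 CPM in aged progenitors (log2 difference -0.58 ± 0.14, edgeR adjusted p = 0.00106). Pola2 (-0.82 ± 0.22, edgeR adjusted p = 0.00297), Dut (-0.56), Pold1 (-0.54), Cdt1 (-0.55), Mcm7 (-0.42), Rfc3 (-0.54) and Dnmt1 (-0.56) were lower too. Ranges overlapped for each member, against 1.52% of all genes lower and 3.86% higher in every progenitor sample.

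Both young calls recurred, which is 25% of the 8 aged calls. With the animal as a block 5 members were lower, and Cdt1, Mcm7, Pold1 and Rfc3 no longer passed (edgeR adjusted p = 0.186, 0.0956, 0.189 and 0.15), whereas Rrm1 did. Of all 13287 genes, 692 were lower and 1294 higher in that fit. Without progenitor aged female 1 there were 5, and the count of all genes in that fit is not given here. Without the animals of 26 and 27 months, all of them male, there were 3, against 915 lower of 14427 genes tested.

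The comparison of aged with young mice asked whether these genes change with age within each cell type. In progenitors 1 of the 46 passed, Cdc45, which was lower in aged mice, against 0.262% of all genes lower and 0.466% higher (0.728% in all). The estimate was below 0 for 44 of the 46, with a median of -0.21 against 0.0043 over all genes. In edgeR 14 members, all with estimates below 0, had an unadjusted p below 0.05, against 9.06% of all genes. Pcna (0.19 ± 0.13) and E2f1 (0.09 ± 0.25) were the members with an estimate above 0.

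Cdc45 (chr16:18780447-18811987, minus strand, GRCm38) measured 46.2, 52.6 and 62.8 CPM in young progenitors and 22.8, 35.8 and 54.7 CPM in aged progenitors. Most aged samples lay below the lowest young sample, but the ranges overlapped. The log2 difference was -0.51 ± 0.12 (95% interval -0.75 to -0.28, edgeR adjusted p = 0.0281), a 1.43-fold lower level. Leaving out each sample in turn kept the call in 12 of 20 fits. It was lost without young male 4 (edgeR adjusted p = 0.0644), young female 1 (0.0599) or 3 (0.0531), aged male 2 (0.0570) or 3 (0.0502), or aged female 1 (0.0616), 2 (0.0580) or 4 (0.0591), with estimates of -0.51 to -0.46. Without aged male 4, Tk1 passed as well (-0.48, edgeR adjusted p = 0.0112).

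The months of the aged animals were not even. All samples of 26 and 27 months came from males, and every aged female progenitor sample was of 23 months. The groups by months therefore also differ by sex. Cdc45 measured 35.6, 39.2 and 54.7 CPM in the 7 aged progenitor samples of 23 and 24 months and 22.8, 32.2 and 33.5 CPM in the 3 of 26 and 27 months. Without the 26 and 27 month animals no member passed (0 in edgeR), 41 of 46 estimates stayed below 0, and Cdc45 had -0.38 (edgeR adjusted p = 0.394). The only aged male progenitor samples left in that fit were male 4 and male 5.

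By role, the CDC45 and GINS group had the lowest median of the age effect in progenitors, at -0.51 over 5 genes, next to -0.48 for the 3 genes of G1/S control, against -0.29 for nucleotide supply, -0.28 for flap, ligase and binding genes, -0.21 for polymerases and -0.12 for the 7 MCM genes. Gins1 measured 16.9, 26.4 and 36.0 CPM in young and 6.48, 15.9 and 28.1 CPM in aged progenitors (log2 difference -0.63 ± 0.20, edgeR adjusted p = 0.186). Tk1 measured 139.1, 185.7 and 212.0 CPM in young and 94.8, 129.3 and 192.8 CPM in aged progenitors (-0.39 ± 0.11, edgeR adjusted p = 0.0982). In both genes the lowest aged samples lay below all young samples, and neither passed. Rpa1 (-0.36 ± 0.12), Lig1 (-0.41 ± 0.14), Rfc3 (-0.32 ± 0.13), Rrm1 (-0.29 ± 0.13), Tyms (-0.29 ± 0.13) and Mcm2 (-0.25 ± 0.11) had edgeR adjusted p of 0.196, 0.247, 0.392, 0.459, 0.46 and 0.46. Little difference was estimated for Mcm6 (-0.08 ± 0.11), and Fen1 (-0.28 ± 0.15), Pole (-0.34 ± 0.18), Rrm2 (-0.18 ± 0.15), Uhrf1 (-0.19 ± 0.17), Dnmt1 (-0.16 ± 0.12), Cdc6 (-0.19 ± 0.23), Ccne1 (-0.53 ± 0.26) and Slbp (-0.58 ± 0.37) did not pass.

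The spread among aged progenitors was wide. Their summed level ran from 1944 to 3411 CPM, against 2805 to 3472 CPM in young progenitors, and the lowest samples were aged female 1 at 1944 and aged male 2 at 2134 CPM. The same samples had the summed goblet markers at 34470 and 30380 CPM, against a median of 19470 CPM in aged progenitors, and the summed enterocyte markers at 2996 and 3305 CPM, against a median of 2445 CPM. Aged female 2 had goblet markers at 31710 CPM, yet its summed level of the 46 genes was 2774 CPM, at the group median of 2773 CPM. Whether goblet cells or enterocytes were present, and their part in the result, was not tested. Without aged female 1, 42 of 46 estimates lay below 0 at a median of -0.16, and without aged male 2, 44 at -0.20. Summed enteroendocrine markers also moved with age in progenitors, from 80.4, 244.6 and 329.7 CPM to 230.1, 540.1 and 1081 CPM. Of these 11 genes 1 was higher, against 0.466% of all genes, and their part was not tested.

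**Figure D4:**
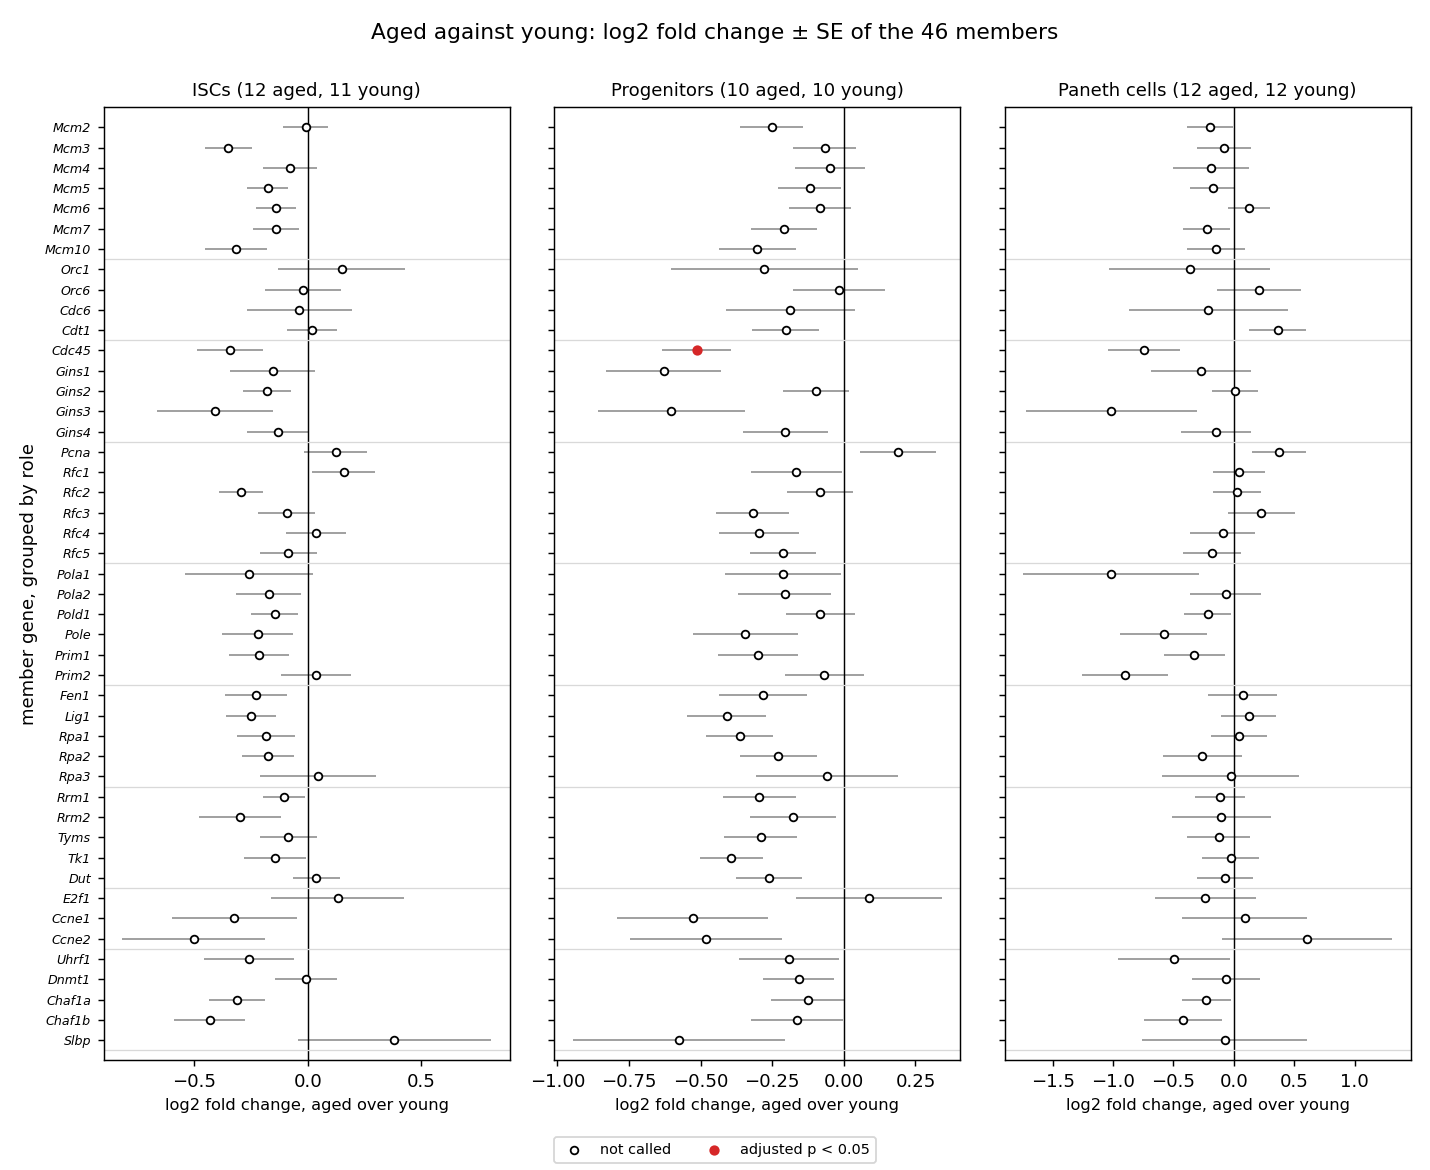
Log2 difference of each of the 46 genes between aged and young mice (horizontal axis, bars ± 1 SE, each panel with its own scale) in ISCs, progenitors and Paneth cells, grouped by role, with filled red points past an adjusted p of 0.05. Cdc45 in progenitors, at -0.51, is the 1 filled point, and most other estimates in progenitors lie between -0.63 and 0.

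In ISCs no member passed in edgeR (0 of 46, against 0.351% of all genes, 0.0669% lower and 0.284% higher), and 0 passed in DESeq2 and in limma-voom. Of all 11958 genes, 106 passed in DESeq2 and 41 in limma-voom. An unadjusted p below 0.05 was reached by 7 members, all with estimates below 0, against 8.90% of all genes. Of all 46, 36 estimates lay below 0, with a median of -0.15 against -0.0022 over all genes. Mcm3 measured 103.1, 130.9 and 150.9 CPM in young ISCs and 54.6, 102.6 and 120.1 CPM in aged ISCs (log2 difference -0.35 ± 0.10, edgeR adjusted p = 0.175). Rfc2, a small loader subunit, measured 90.3, 125.1 and 143.4 CPM in young ISCs and 81.6, 99.1 and 119.2 CPM in aged ISCs (-0.29 ± 0.10, edgeR adjusted p = 0.268). Chaf1b, a histone chaperone subunit, measured 20.6, 51.3 and 61.7 CPM in young ISCs and 26.5, 35.2 and 49.9 CPM in aged ISCs (-0.43 ± 0.16, edgeR adjusted p = 0.352). All ranges overlapped.

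Chaf1a (-0.31), Cdc45 (-0.34), Mcm10 (-0.32) and Lig1 (-0.25) completed the genes with an unadjusted p below 0.05. All 7 MCM genes and all 5 genes of CDC45 and GINS had estimates below 0 in ISCs, at medians of -0.14 and -0.18, whereas Slbp (0.38), Rfc1 (0.16), Orc1 (0.15), E2f1 (0.13) and Pcna (0.12) had estimates above 0. The summed level had medians of 3676 CPM in young ISCs and 3340 CPM in aged ISCs, and the ranges of 3224 to 3895 and 3074 to 3706 CPM overlapped.

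In Paneth cells no member passed in edgeR (0 of 46, against 0.0686% of all genes, 0.00857% lower and 0.06% higher), nor in DESeq2 (0) or limma-voom (0). Of all 11663 genes, 29 passed in DESeq2 and 14 in limma-voom. An unadjusted p below 0.05 was reached by 2 members, against 6.83% of all genes. Of the 46 estimates 33 lay below 0, with a median of -0.12 against 0.0081 over all genes. With unscaled totals the direction turned: the median of the members was 0.08 and 15 lay below 0, while the median of all genes moved to 0.24 and 34 members lay below that. Prim2 measured 9.88, 29.3 and 54.0 CPM in young and 4.02, 13.7 and 27.6 CPM in aged Paneth cells (log2 difference -0.90 ± 0.36, edgeR adjusted p = 0.551). Cdc45 measured 15.2, 38.8 and 61.4 CPM in young and 5.35, 21.0 and 47.2 CPM in aged Paneth cells (-0.75 ± 0.30, edgeR adjusted p = 0.551).

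Both genes had the aged median below the young one and ranges that overlapped widely. All 6 polymerase and primase genes had estimates below 0 in Paneth cells, at a median of -0.45. Pcna (0.37 ± 0.22) and Cdt1 (0.36 ± 0.23) had estimates above 0. The median coefficient of variation of the members was 44.7% in young and 50.7% in aged Paneth samples, against 21.8% and 22.7% in ISCs and 18.7% and 25.8% in progenitors.

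Across cell types, 26 of the 46 members (56.5%) had estimates below 0 in all 3 age effects, against 17.3% of 10927 genes tested in all 3, and Pcna was the 1 member above 0 in each. With unscaled totals 12 members lay below 0 in all 3. No member was separated between young and aged samples in any cell type, against 0.0167% of all genes lower and 0.0418% higher in every aged sample in ISCs, 0.0254% and 0.0423% in progenitors and 0% and 0.00857% in Paneth cells. Many animals gave more than 1 cell type, so the age effects are not independent. Cdc45 was below 0 in each, at -0.34 for ISCs, -0.51 for progenitors and -0.75 for Paneth cells. No age effect of a member passed a test of the difference between cell types: 0 passed in edgeR for progenitors against ISCs (0.00753% of all genes), for Paneth cells against ISCs (0.0376%, of which 0.0301% lower and 0.00753% higher) and for Paneth cells against progenitors (0%), with 0 also in DESeq2 and limma-voom. Of all 13287 genes, 4, 32 and 17 passed in DESeq2 and 1, 6 and 0 in limma-voom, in the same order. Unadjusted p below 0.05 was reached by 0, 1 and 4 members, against 2.19%, 8.91% and 7.27% of all genes. Prim2 had the smallest adjusted p, with an age effect lower in Paneth cells than in ISCs by 0.96 (-0.96 ± 0.33, edgeR adjusted p = 0.263).

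Within each sex, ratios of the group means lay below 1 for 31 of 46 members in males and 38 in females in ISCs, 41 and 34 in progenitors, and 23 and 30 in Paneth cells. No age effect of a member passed a test of the difference between sexes in edgeR (0 in each cell type, against 0% of all genes, and 0 in DESeq2 and limma-voom). Of all genes, 0, 2 and 0 passed in DESeq2 in ISCs, progenitors and Paneth cells, and 0 in limma-voom in each. In ISCs DESeq2 gave an adjusted p for 44 of the members. An unadjusted p below 0.05 was reached by 3, 5 and 0 members in ISCs, progenitors and Paneth cells, against 7.0%, 6.2% and 5.3% of all genes.

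Genes of mitosis, which act after S phase, were set beside the members as a list of 30. In aged progenitors 6 of the 30 were lower, against 0.262% of all genes. Of the 30 estimates 29 lay below 0, at a median of -0.40, against -0.21 for the 46 replication genes. Lower were Top2a, the topoisomerase that untangles chromosomes (-0.60 ± 0.11, edgeR adjusted p = 0.00198), Ube2c, an enzyme of mitotic exit (-0.52 ± 0.10, edgeR adjusted p = 0.00304), Aurka, a spindle kinase (-0.58 ± 0.12, edgeR adjusted p = 0.00638), and Ttk, Kif23 and Cdc20. Their summed level was 2257 to 3063 CPM in young and 1685 to 2365 CPM in aged progenitors, with little overlap. In ISCs 0 of the 30 passed in edgeR (3 at an unadjusted p below 0.05), at a median of -0.07, and in Paneth cells 0 (3 at an unadjusted p below 0.05), at -0.30. Of all genes, 0.351% and 0.0686% passed in these cell types, and 8.90% and 6.83% had an unadjusted p below 0.05. The difference between the mitosis and replication lists was not tested.

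**Figure D5:**
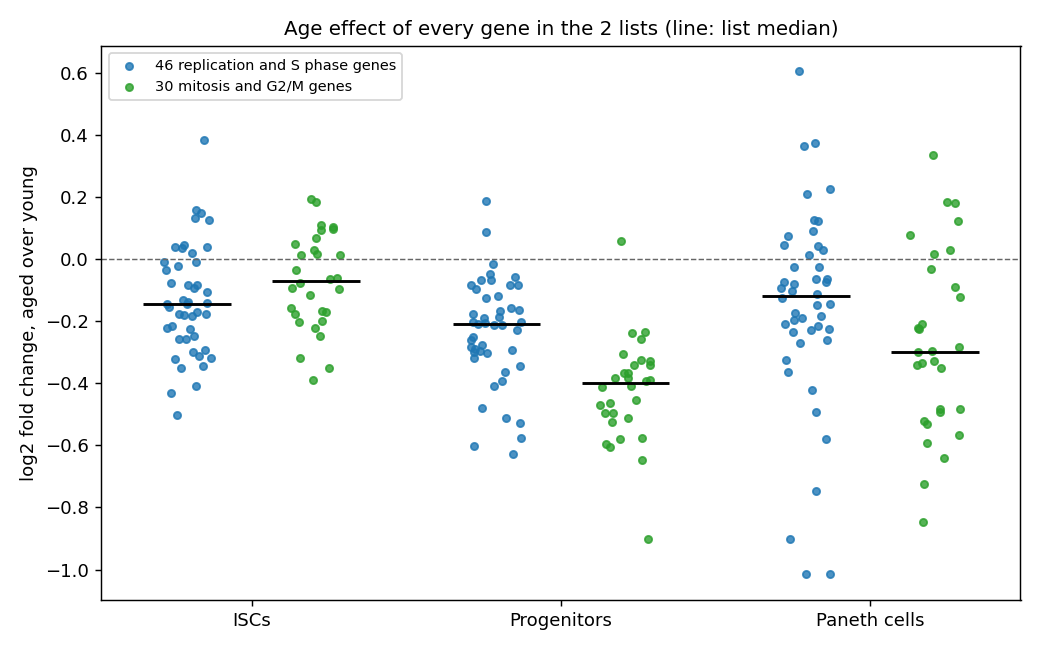
Log2 difference between aged and young mice (vertical axis) for the 46 replication genes and 30 mitosis genes in ISCs, progenitors and Paneth cells, 1 point per gene, with a line at the median of each list. In progenitors the lines stand at -0.21 and -0.40, and in ISCs at -0.15 and -0.07.

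Between cell types the mitosis list had the lower medians. In young Paneth cells 28 of 30 were lower than in ISCs, where 12.4% of all genes were lower. The median was -1.05, against -0.68 for the replication genes. In progenitors 9 of 30 were lower than in young ISCs, at -0.45, and 26 of 30 in aged mice, at -0.81, against -0.27 and -0.34 for the replication genes. The shares of all genes that were lower were 9.47% in young and 11% in aged mice. These lists were again described and not compared by a test.

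The other genes of the pathway were described as lists of their own. In the age effects 0 members of each passed in edgeR, in all 3 cell types. In aged progenitors the estimates lay below 0 for 12 of 16 further licensing and firing genes, 22 of 28 replisome genes, 10 of 15 nucleotide genes, 11 of 13 chromatin genes, 9 of 13 G1/S drivers and 9 of 14 G1/S brakes, of which 2, 6, 1, 2, 3 and 2 had an unadjusted p below 0.05. The fork protection gene Tipin came nearest (-0.62 ± 0.17, edgeR adjusted p = 0.0811). In ISCs 3, 6, 0, 3, 2 and 1 genes of these lists had an unadjusted p below 0.05, and in Paneth cells 0, 4, 0, 1, 1 and 0. Of all genes, 9.06% in progenitors, 8.90% in ISCs and 6.83% in Paneth cells had an unadjusted p below 0.05.

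Between young Paneth cells and ISCs, the further licensing genes were lower in 9 of 16, replisome genes in 10 of 28 with 1 higher, nucleotide genes in 6 of 16 with 1 higher, and chromatin genes in 8 of 13. The shares of all genes were 12.4% lower and 16.8% higher. Named by p-value were Topbp1, which helps origins fire (-1.24 ± 0.16), Pole2, a subunit of polymerase epsilon (-1.98 ± 0.33), Paics, a purine enzyme (-1.35 ± 0.16), and Asf1b, a histone chaperone (-1.29 ± 0.25). Samhd1, which degrades dNTPs, was higher (0.81 ± 0.20, edgeR adjusted p = 0.0013).

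Of 13 G1/S drivers, 6 were lower and 1 higher in young Paneth cells than in ISCs, led by Ccna2, cyclin A2 (-0.98 ± 0.15, edgeR adjusted p = 1.6e-07), and Cdk4 (-0.67 ± 0.13, edgeR adjusted p = 1.99e-05). Of 15 brakes tested, 3 were lower and 3 higher. For both lists the shares of all genes were 12.4% lower and 16.8% higher. The CDK inhibitor genes Cdkn1a (4.33 ± 0.42, edgeR adjusted p = 6.98e-13) and Cdkn2b (4.78 ± 0.56, edgeR adjusted p = 4.23e-10) were the brakes with the smallest p among those higher. They were picked from a list in which as many brakes were lower as higher, so they do not stand for the list.

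The same CDK inhibitors were higher in young progenitors than in ISCs, Cdkn1a by 3.05 ± 0.40 (edgeR adjusted p = 1.65e-08) and Cdkn2b by 5.22 ± 0.57 (edgeR adjusted p = 8.43e-11). The other brakes are not described for progenitors. Cdkn1a measured 0.13, 4.41 and 8.68 CPM in young ISCs, 24.6, 31.2 and 51.0 CPM in young progenitors and 12.5, 85.4 and 155.4 CPM in young Paneth cells. Cdkn2b measured 0, 1.10 and 6.52 CPM in young ISCs, 52.1, 78.3 and 99.6 CPM in young progenitors and 23.3, 56.0 and 114.8 CPM in young Paneth cells. Every young progenitor and Paneth sample lay above every young ISC sample in both genes. This held for 4.7% of all genes in progenitors and 2.45% in Paneth cells. Of the drivers in the comparison of young progenitors with ISCs 3 were lower and 2 higher, against 9.47% and 13.3% of all genes. Cdk6 (-1.72 ± 0.21) and Myc (-1.62 ± 0.26) were lower and E2f2 higher (1.72 ± 0.26). Both comparisons use the same young ISC samples.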

How the data were processed

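The authors deposited gene counts and CPM for 112 single-end libraries. Per the submitters' processing notes, cutadapt 3.0, STAR 2.7.9a, HTSeq 0.13.5, DESeq2 1.30.1 and mm10 were used; annotation and strand setting were not given in the sources used here, so reads of overlapping genes may be mixed. Rescaling the deposited counts gave the deposited CPM (largest difference 4.95e-10), so the counts were tested. Genes without a symbol (127) held 0.00162% of the counts. Paneth cells had 2 or 3 technical libraries per animal, which were summed, giving 67 samples from 36 animal names, 23 of which gave several cell types. For 2 aged male names it is not stated whether they are 1 animal, and they were counted apart, also in the animal block. One aged animal carries 24 months in its ISC label and 23 in the others. Libraries held 1.08 to 7.57 M counts.

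Age effects were fitted in each cell type over 4 age-by-sex groups, averaging the difference in males and in females, and cell types were compared in 1 fit of all 67 samples, with edgeR 4.0.16 in R 4.3.3 (quasi-likelihood F test, robust, TMM scaling, filterByExpr with a minimum count of 10, Benjamini-Hochberg adjustment over all genes, threshold 0.05). SE is the log2 difference over the root of F. For the age effects within a cell type, the p-values measure the spread between animals. In the fit of all 67 samples, samples of 1 animal counted as independent and the spread of a gene was shared by all cell types. Fits with the animal as a block took account of the shared animals. DESeq2 1.42.0, limma-voom (limma 3.58.1), other scalings and filters, nuclear genes only, blocks, left-out samples and a threshold of 0.1 were alternatives. The scripts were tested on simulated data.

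Same-numbered young and aged samples did not deviate together (median r 0.029, -0.0089 and 0.012 in ISCs, progenitors and Paneth cells). Cell types taken from 1 animal are paired by their source, and their residuals correlated at a median r of 0.0859, 0.0642 and 0.0623 for ISCs with progenitors, ISCs with Paneth cells and progenitors with Paneth cells.

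The genes and lists were chosen with earlier results of these data known, the further pathway and marker lists from general knowledge. Named were the members with the smallest p, up to 8 in each direction per comparison, and Mcm2, Mcm6, Cdc6, Cdc45, Pcna, Pole, Fen1, Rrm2, Tyms, E2f1, Ccne1, Uhrf1, Dnmt1 and Slbp throughout; other names were chosen after their values were seen. Gene positions are from GENCODE M21 and promoters from RefSeq, both on GRCm38.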

Additional observations from a re-analysis of the deposited data

Results flagged for a closer look

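In 78 groups of 4 to 10 samples, 4 had an end value far from the rest of its group by Dixon's criterion, where chance alone gives about 1 in 20. The summed members of ISC young female 3 were 3407 CPM, the lowest of 6 young female ISC samples, with the next at 3732 CPM. In young progenitors, female 3 had the highest Gins3, at 17.5 CPM with the next at 11.6 CPM, and the highest Mcm2, at 170.2 CPM with the next at 134.7 CPM. In aged progenitors, female 5 had the highest Rfc2, at 141.9 CPM with the next at 96.3 CPM.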

How the results depend on the processing

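Counts of called members under other settings follow, and the cause of each change was not tested. For left-out samples and for the threshold of 0.1 the counts of all genes are not given, so whether only the members moved cannot be read there. In the age effect in progenitors (1 called), 0 passed with the replicate number as a replicate block (Cdc45 at -0.53, edgeR adjusted p = 0.0576), although the numbers did not pair these samples, 0 without the animals of 26 and 27 months, 2 at an adjusted p below 0.1, and 0 to 2 with each sample left out. Of all genes, 86 of 11812 passed in the fit reported above, 63 with the replicate block and 34 of 12637 without the animals of 26 and 27 months. In progenitors against ISCs of young mice (2 called), 8 passed with DESeq2 size factors, 8 with unscaled totals, 6 with nuclear genes only, 8 in DESeq2, 8 in limma-voom, 4 with the animal as a replicate block, 1 with the first technical Paneth library only, 18 with only ISCs and progenitors fitted (chosen after seeing the data), 6 at an adjusted p below 0.1, and 2 to 4 with each sample left out. Of all genes, 3021 passed in the fit reported above, 3075, 2903 and 3041 with these scalings and nuclear genes, 3308 in DESeq2 and 3903 in limma-voom. With the animal block 1686 passed, with the first technical library 1753, and with only ISCs and progenitors fitted 4684. In aged mice (8 called), 15 passed with unscaled totals, 14 in limma-voom, 5 with the animal block, 2 with the first technical Paneth library, 3 without the animals of 26 and 27 months, 19 with only ISCs and progenitors fitted, and 5 to 10 with each sample left out. Of all genes, 3329 passed in the fit reported above, 3212 with unscaled totals, 4325 in limma-voom and 1986 with the animal block. With the first technical library 1883 passed, without the animals of 26 and 27 months 2462, and with only ISCs and progenitors fitted 4895. In Paneth cells against ISCs of young mice (29 called), 46 passed with unscaled totals and 17 with the first technical library, and against progenitors (18 called) 46 with unscaled totals. Of all genes, 11466 of 13287 passed against ISCs with unscaled totals and 2905 of 12654 with the first technical library. Against progenitors 10716 of 13287 passed with unscaled totals. Unscaled totals reversed Rfc1 in Paneth cells against young ISCs (-1.07), aged ISCs (-0.96) and progenitors (-0.88), and Pold1 against progenitors (-1.27). The share of called genes that were higher moved with unscaled totals from 58.4% to 44.9% in young and from 56.1% to 42.2% in aged progenitors against ISCs. With the same setting it fell to 4.40%, 5.50% and 3.01% in the comparisons of Paneth cells with young ISCs, aged ISCs and progenitors, and to 53.1% from 64.0% in the age effect in progenitors. The age effects in ISCs and in Paneth cells gave 0 called members in every alternative run. With the first technical library only, 43 members were tested for the age effect in Paneth cells, where 3 of all 9522 genes passed. The animal block ended the calls of Pola2 in young and of Cdt1, Mcm7, Pold1 and Rfc3 in aged progenitors against ISCs, of Cdc6, Gins2, Gins4, Lig1, Pola2, Prim1 and Uhrf1 in young and of Mcm10 and Orc6 in aged Paneth cells against ISCs, and in young Paneth cells against progenitors it added Cdc45, Orc6 and Rfc5. Paneth samples had the fewest counts of nuclear genes and the widest spread, which limits what could be detected there.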
